A study of Mus musculus with 53 samples.

Results

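SOX2 binding was compared between double-positive (DP) cells, which carry both SOX2 and GATA6 protein, and the SOX2+ sister cells sorted from the same cultures. A SOX2 region was called DP-gained when at least 2 DP libraries and no SOX2+ library held a peak there, and DP-lost when all 3 SOX2+ libraries and no DP library did, after the lists of each sort had been brought to an equal peak number. Of 9129 merged SOX2 regions, 1081 were DP-gained (11.8%) and 69 were DP-lost (0.756%). These shares follow from the rule and carry no test.

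The cells were SGGC mouse embryonic stem cells (E14JU, 129/Ola background), in which the endogenous SOX2 protein is fused to GFP and the endogenous GATA6 protein to mCherry. Both populations therefore carried both reporters and had been grown in KOSR medium (KnockOut Serum Replacement) before they were separated by fluorescence. There were 3 DP and 3 SOX2+ libraries, 1 of each from the sorts labelled A, A1 and B, among 35 libraries with a peak list. All 6 are labelled clone B12, although the description of the series names clones B9 and B12 for all conditions, and which holds for each sort was not settled here. Nothing in the labels says that the sorts came from separate cultures, so the p-values measure only the spread between these samples, which may be technical. In CUT&RUN an antibody guides a nuclease to its target and the released DNA is sequenced. The other readouts were GATA6 in DP cells (3 libraries) and in nEnd, a stem cell culture of naive extra-embryonic endoderm (2 libraries), SOX2 in the naive media 2iLIF and NACL (4 libraries), and the histone marks H3K27ac and H3K4me1.

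SOX2 is an HMG-box factor that keeps the epiblast and embryonic stem cells pluripotent, often together with OCT4. GATA6 is a zinc-finger factor that reads GATA sequences and specifies primitive endoderm (PrE), the extra-embryonic lineage that separates from the epiblast in the blastocyst. H3K4me1 marks enhancers, and H3K27ac marks those that are active. Cells that hold both factors therefore let the binding of SOX2 be read with and without its opposing lineage factor.

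The sequences around the strongest SOX2 signal differed between the classes in the strings that the factors read. Each line below gives 201 bases of the plus strand of GRCm38 centred on the position of highest SOX2 signal, with AGATAA (read by GATA factors), CATTGT (SOX) and CTTTGT (SOX and TCF) in capitals on either strand. The first set shows the DP-gained region of highest rank and high-ranked DP-gained regions nearest to 4 PrE genes and 3 pluripotency genes, all with no SOX2+ peak.

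Gm6993, chr12:31229481-31229681: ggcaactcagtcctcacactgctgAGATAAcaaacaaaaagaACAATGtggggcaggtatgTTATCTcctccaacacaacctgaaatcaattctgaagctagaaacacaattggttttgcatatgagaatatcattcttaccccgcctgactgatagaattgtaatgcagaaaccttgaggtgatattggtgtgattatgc
Col4a2, chr8:11266251-11266451: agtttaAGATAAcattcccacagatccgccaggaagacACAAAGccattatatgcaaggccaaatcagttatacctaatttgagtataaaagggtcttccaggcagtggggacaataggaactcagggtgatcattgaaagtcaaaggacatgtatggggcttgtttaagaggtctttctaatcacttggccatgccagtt
Pdgfra, chr5:75146262-75146462: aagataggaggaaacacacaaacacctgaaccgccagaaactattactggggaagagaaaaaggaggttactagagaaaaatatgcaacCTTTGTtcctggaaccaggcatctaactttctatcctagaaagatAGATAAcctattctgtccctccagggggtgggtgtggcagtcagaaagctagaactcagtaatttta
Cubn, chr2:13489558-13489758: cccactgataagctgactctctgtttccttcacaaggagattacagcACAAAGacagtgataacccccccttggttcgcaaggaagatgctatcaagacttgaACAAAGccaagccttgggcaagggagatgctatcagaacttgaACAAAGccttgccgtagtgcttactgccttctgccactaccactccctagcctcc
Plod2, chr9:92551848-92552048: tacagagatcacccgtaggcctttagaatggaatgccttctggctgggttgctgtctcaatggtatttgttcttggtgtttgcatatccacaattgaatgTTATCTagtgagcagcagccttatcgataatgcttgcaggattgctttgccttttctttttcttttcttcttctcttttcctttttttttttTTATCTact
Tbx3, chr5:119580008-119580208: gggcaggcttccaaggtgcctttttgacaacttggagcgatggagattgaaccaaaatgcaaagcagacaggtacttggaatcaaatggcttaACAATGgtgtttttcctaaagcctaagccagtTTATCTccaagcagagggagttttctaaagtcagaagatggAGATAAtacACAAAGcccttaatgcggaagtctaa
Dppa4, chr16:48279037-48279237: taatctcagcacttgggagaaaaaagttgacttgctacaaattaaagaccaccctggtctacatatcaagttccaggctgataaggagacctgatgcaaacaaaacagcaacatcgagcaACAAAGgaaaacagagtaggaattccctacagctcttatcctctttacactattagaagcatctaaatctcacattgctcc
Esrrb, chr12:86480763-86480963: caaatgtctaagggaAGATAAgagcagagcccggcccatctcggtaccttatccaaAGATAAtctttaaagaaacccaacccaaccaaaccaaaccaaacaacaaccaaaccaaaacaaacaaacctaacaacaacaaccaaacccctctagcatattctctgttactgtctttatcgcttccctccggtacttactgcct

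The second set shows the 3 DP-lost regions of highest rank in SOX2+ cells.

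Ncoa1, chr12:4359588-4359788: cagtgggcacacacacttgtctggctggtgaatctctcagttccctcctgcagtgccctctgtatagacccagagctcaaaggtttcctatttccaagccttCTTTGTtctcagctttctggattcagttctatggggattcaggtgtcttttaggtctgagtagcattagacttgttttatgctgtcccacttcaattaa
Rab3gap1, chr1:127904845-127905045: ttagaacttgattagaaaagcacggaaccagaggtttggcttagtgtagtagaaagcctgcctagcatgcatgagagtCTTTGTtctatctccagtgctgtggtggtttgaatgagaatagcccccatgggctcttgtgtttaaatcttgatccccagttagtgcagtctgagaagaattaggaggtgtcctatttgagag
Mycn, chr12:12927185-12927385: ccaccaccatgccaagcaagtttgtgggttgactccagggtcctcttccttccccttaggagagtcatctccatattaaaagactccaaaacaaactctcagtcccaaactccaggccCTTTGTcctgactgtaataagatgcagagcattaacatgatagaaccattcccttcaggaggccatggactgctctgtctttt

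AGATAA lay in the windows of Gm6993, Col4a2, Pdgfra, Plod2, Tbx3 and Esrrb and in none of the 3 windows of lost regions. CTTTGT lay in each of the 3 windows of lost regions and also in 5 of the 8 gained ones (Col4a2, Pdgfra, Cubn, Tbx3 and Dppa4). Over all regions the strings were counted in the 500 bp around the strongest signal. AGATAA lay in 780 of 1081 gained regions (72.2%, exact 95% interval 69.4 to 74.8), in 10 of 69 lost regions (14.5%, 7.17 to 25.04) and in 3436 of all 9129 regions (37.6%). The gained share was 57.7 percentage points above the lost share (95% interval 47.1 to 64.6). CTTTGT lay in 61.2% of gained, 79.7% of lost and 64.5% of all regions. CATTGT was found at similar shares in the classes, 46.7% of gained, 52.2% of lost and 45.4% of all regions. Intervals here and below cover counting error over regions only, and regions of 1 library pair are not independent replicates.

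The peak lists set what each library could show. The DP lists held 4859 peaks in sort A, 5320 in A1 and 1378 in B, and the SOX2+ lists held 16819, 20609 and 10513. With equal numbers the SOX2+ lists ended at a maximum signal of 18, 15 and 25, where the whole DP lists ended at 2, 4 and 3, each on its library's own coverage scale. Of the gained regions, 985 rested on the DP libraries of A and A1 alone and 96 included the short list of B. A total of 83 gained regions had a peak in all 3 DP libraries. Without sort A there were 119 gained and 106 lost regions, without A1 there were 114 and 162, and without B there were 1069 and 1118, each by presence in both remaining sorts.

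**Figure D1:**
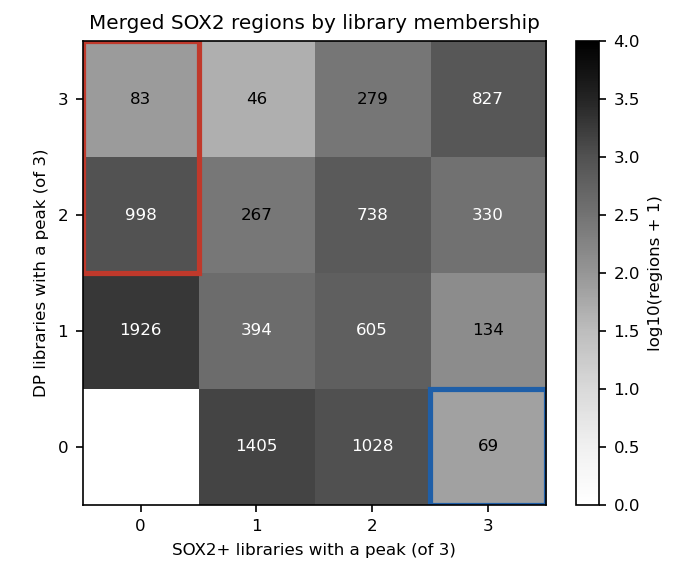
Number of merged SOX2 regions by how many of 3 SOX2+ libraries (x axis) and of 3 DP libraries (y axis) held a peak at equal peak numbers, with grey depth on a log10 scale. The red frame holds the 998 and 83 DP-gained regions and the blue frame the 69 DP-lost regions, and 827 regions were in all 6 lists.

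The gained regions fell into 2 tiers by the full SOX2+ lists. In 409 of them (4.48% of merged regions) no SOX2+ library held a peak of any strength. The other 672 had a SOX2+ peak below the rank at which the lists were cut, in 3 SOX2+ libraries for 336 regions, in 2 for 200 and in 1 for 136. In that tier the best SOX2+ percentile, the share of a library's peaks with a lower maximum signal, ran from 2.16 to 85.7 with a median of 54.2. As raw values the highest SOX2+ signal was above the highest DP signal in 173 of the 672 regions and below it in 451. Raw values are on each library's own scale, so these 2 counts are only a description. The median percentile in the full lists was higher in DP than in SOX2+ cells at 404 of the 672 regions and lower at 268. In this tier gained therefore means only that the SOX2+ peak fell outside the equal number of peaks counted from the top, and for the first tier alone that SOX2+ cells lacked a peak. Lost regions had a median SOX2+ percentile of 91.7. Under the looser rule of at least 2 SOX2+ and no DP libraries there were 1097 such regions (12%).

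GATA6 was present at most DP-gained SOX2 regions and at none of the lost ones. A GATA6 peak of at least 2 DP libraries lay at 622 of 1081 gained regions (57.5%, 54.5 to 60.5) and at 393 of 3620 regions with SOX2 peaks of both populations (10.9%, 9.86 to 11.9). Among the 409 regions without any SOX2+ peak the share was 79.7% (75.5 to 83.5), and among the 672 with a lower-ranked SOX2+ peak it was 44.0% (40.3 to 47.9). No GATA6 region lay at the 69 lost regions, which allows a share of up to 4.35% as 3 counts of the total (exact 95% upper limit 5.21%), nor at the 1097 regions of the looser rule, which allows up to 0.273% (exact upper limit 0.336%). The gained minus lost difference was 57.5 percentage points (51.5 to 60.5). By single library, GATA6 of DP sort A covered 70.8% of gained regions, that of A1 58.8% and that of B 31.7%, in the order of their list lengths of 8316, 3821 and 1391 peaks. With 1391 GATA6 peaks from each library the gained share was 33.4%, and the lost share stayed at 0 of 69. The SOX2 and GATA6 libraries of DP cells came from the same sorts, and the part of a shared background in this overlap was not tested.

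GATA6 measured in other cells gave the same order. GATA6 of both nEnd libraries lay at 57.0% of gained (54.0 to 59.96), 2.899% of lost (0.353 to 10.1) and 20.3% of shared regions. In the gained regions with GATA6 in DP cells the nEnd share was 73.5%, and in those without it was 34.6%. AGATAA lay in 88.3% of the former (85.5 to 90.7) and in 50.3% of the latter (45.7 to 55.0). Distances between the SOX2 and GATA6 maxima were taken only where a SOX2 peak overlapped a GATA6 peak of the same sort. This overlap by itself keeps the distances short. Their medians were 40 bp in sort A (766 gained peaks), 41 bp in A1 (635) and 54 bp in B (43). In regions of both populations the medians were 42.5, 49 and 61 bp, so these distances were not particular to gained regions.

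**Figure D2:**
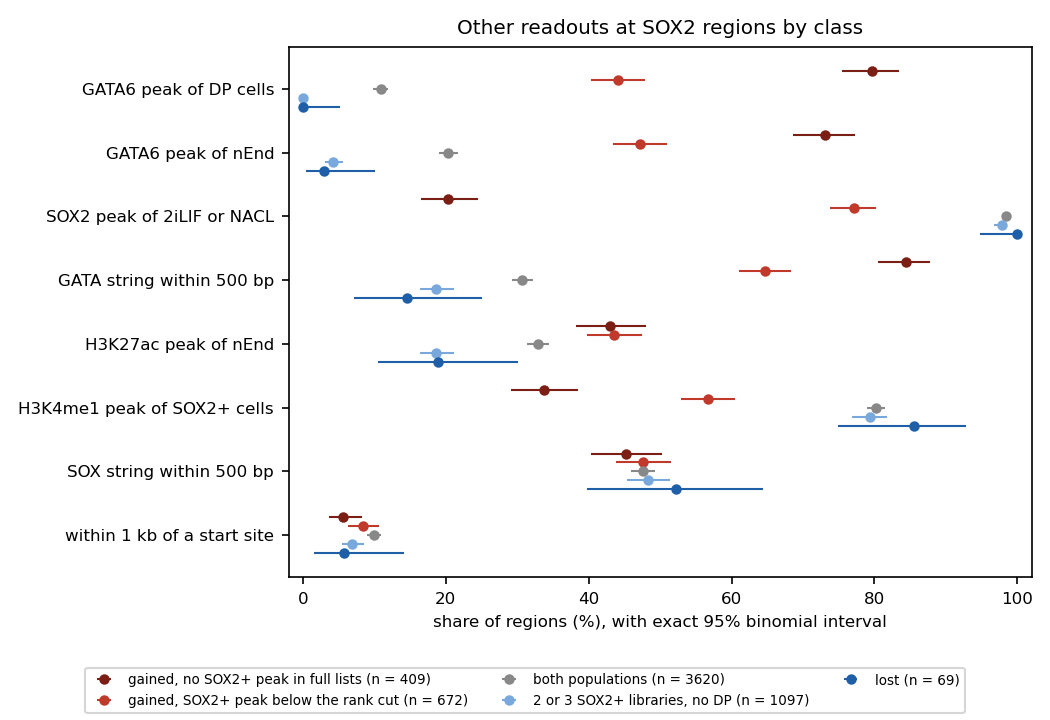
Share of regions in percent (x axis, points with exact 95% binomial intervals) that held each other readout (y axis), for 5 classes of SOX2 region. GATA6 and GATA string shares are highest in gained regions without a SOX2+ peak (79.7% and 84.4%), SOX2 of naive media is highest in lost regions (100%), and the SOX string and promoter shares lie close together.

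The same contrast was then made within each sort, where the 3 sorts and not the regions are the replicates. GATA6 of the same sort lay at 52.7% of the SOX2 peaks found only in DP cells in sort A, at 42.5% in A1 and at 19.8% in B, against 2.00%, 0.300% and 0.984% of the peaks found only in SOX2+ cells. The mean difference was 37.2 ± 16.6 percentage points (SD, n = 3), and it was positive in 3 of 3 sorts (two-sided exact sign-flip p = 0.25, which 3 sorts cannot go below). GATA6 of the other sorts gave 44.4 ± 6.49 percentage points and GATA6 of nEnd 36.2 ± 5.11, also positive in 3 of 3 sorts (exact sign-flip p = 0.25 for each). AGATAA lay in 60.9%, 62.3% and 46.0% of DP-only peaks and in 20.9%, 19.3% and 19.3% of SOX2+-only peaks. Sort B had the lowest GATA string and same-sort GATA6 shares of DP-only peaks, and the groups did not overlap for either measure.

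**Figure D3:**
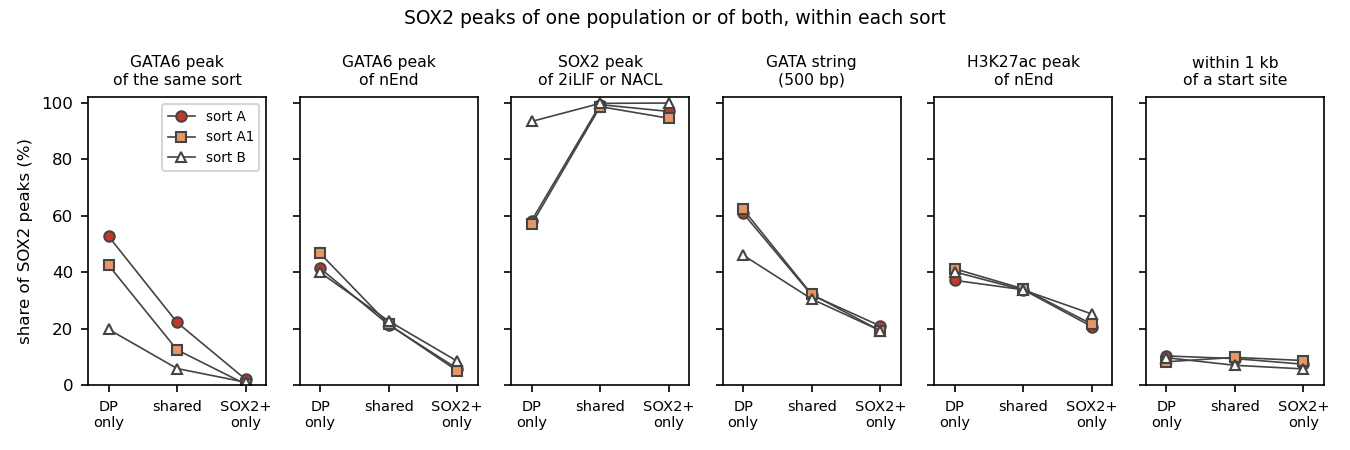
Share of SOX2 peaks in percent (y axis) with each readout for peaks found only in DP cells, in both populations or only in SOX2+ cells (x axis), with 1 line for each sort. GATA6 and the GATA string fall from left to right in all 3 sorts, SOX2 of naive media is lowest in DP-only peaks, and the promoter shares change little.

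Over the whole equal-number lists the difference was smaller. GATA6 of nEnd lay at 30.4%, 32.5% and 29.03% of SOX2 peaks in the DP libraries A, A1 and B and at 14.2%, 14.3% and 17.6% in the SOX2+ libraries. The means were 30.7 ± 1.77% and 15.4 ± 1.91% (SD, n = 3 each), a difference larger than the spread of either group (two-sided exact permutation p = 0.1, which 3 against 3 cannot go below, 0.214 adjusted over 15 readouts). AGATAA lay in 42.2 ± 5.19% of DP and 25.9 ± 0.188% of SOX2+ peaks (exact permutation p = 0.1, adjusted 0.214). H3K27ac of nEnd lay at 36.2 ± 0.968% and 28.9 ± 1.57% (exact permutation p = 0.1, adjusted 0.214). The strings of KLF (CCACACCC), ESRRB (TCAAGGTCA), AP-1 (TGANTCA) and TEAD (GGAATG) were also higher in every DP library than in every SOX2+ library, by 1.54, 1.005, 1.67 and 2.97 percentage points (exact permutation p = 0.1 for each). With all deposited peaks the KLF difference was 0.838 and its groups overlapped (exact permutation p = 0.2), and that of AP-1 was 0.823. With peaks ranked by total signal the TEAD difference was 1.52 and its groups overlapped (exact permutation p = 0.2). The SOX string overlapped between the groups (49.1 ± 5.47% against 50.4 ± 4.92%, exact permutation p = 0.5). The OCT string ATGCAAAT (7.96 ± 0.372% against 7.996 ± 0.650%, exact permutation p = 0.9) and the CTCF string CCACNAGG (11.1 ± 2.37% against 12.5 ± 2.15%, exact permutation p = 0.5) overlapped as well. CTTTGT lay in 65.4 ± 3.22% of DP and 70.0 ± 3.33% of SOX2+ peaks, a difference of -4.60 percentage points with overlapping groups (exact permutation p = 0.3). Within sorts, the SOX, CTTTGT and CTCF strings were each lower in DP than in SOX2+ cells in 3 of 3 sorts (exact sign-flip p = 0.25 for each). With 1378 peaks in all 6 lists the groups no longer overlapped for CTCF (difference -3.02 percentage points), CTTTGT (-4.98) and OCT, whose direction turned (0.847, exact permutation p = 0.1 for each). The SOX-OCT composite motif lay in under 1% of the peaks of every library, with means of 0.386% and 0.452% (exact permutation p = 0.9), and its compressed form in 0.0131% and 0.0436% (exact permutation p = 0.2). With 3 against 3 no adjusted p could pass 0.05.

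Gained regions were divided between those with and without SOX2 in naive cells. SOX2 of 2iLIF or NACL, in at least 1 of the 4 libraries, lay at 601 of 1081 gained regions (55.6%, 52.6 to 58.6), at 69 of 69 lost regions and at 98.5% of shared regions. The gained share was 79.8% without sort A, 81.6% without A1 and 85.4% with 1378 peaks in all 6 lists, and 55.5% without B. In the gained regions with no SOX2+ peak it lay at 83 of 409 (20.3%, 16.5 to 24.5). GATA6 of DP cells lay at 271 of the 601 naive-bound gained regions (45.1%) and at 351 of the 480 others (73.1%). A total of 129 gained regions had neither GATA6 in DP cells nor SOX2 in naive media. Sort B stood apart here, since 93.5% of its DP-only peaks were bound by SOX2 in naive media, against 58.3% in A and 57.0% in A1. By whole list the share was 80.8%, 80.5% and 97.5% in DP and 98.4%, 96.9% and 99.9% in SOX2+ libraries, so the groups overlapped (exact permutation p = 0.2, adjusted 0.333), while the share was lower in DP cells in 3 of 3 sorts (exact sign-flip p = 0.25). With 1378 peaks in all 6 lists the difference was -6.00 percentage points and the groups did not overlap, nor did they when peaks were ranked by total signal (-12.5, exact permutation p = 0.1 for both). With all deposited peaks it turned to 2.76 (exact permutation p = 0.7).

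Histone marks also differed between the classes. H3K27ac of nEnd lay at 43.4% of gained (40.4 to 46.4) and 18.8% of lost regions (10.4 to 30.1), and H3K4me1 of nEnd, from 2 samples of clone B9, at 52.9% and 18.8%. In SOX2+ cells (2 libraries of each mark) H3K4me1 lay at 48.0% of gained (45.0 to 51.0) and 85.5% of lost regions (74.96 to 92.8), and at 33.7% of gained regions without a SOX2+ peak. H3K27ac of SOX2+ cells lay at 15.6% of gained and 20.3% of lost regions and at 6.11% of gained regions without a SOX2+ peak, against 39.9% of regions shared by both populations. In the single H3K27ac library of DP cells the shares were 73.1% of gained, 30.4% of lost and 67.7% of shared regions. In the single H3K4me1 library of DP cells they were 90.4%, 79.7% and 90.4%. The H3K27ac list of DP cells held 76260 peaks and those of SOX2+ cells 13514 and 14722. For H3K4me1 they held 130749 in DP cells and 58085 and 78354 in SOX2+ cells. The shares of either mark in the populations therefore cannot be set against each other, whereas shares of classes within a list can. H3K27ac of 2iLIF lay at 69.4% of gained and 79.7% of lost regions. Its lists held 401853 and 232779 peaks, against 20072 and 21394 in nEnd, so the shares of 2iLIF and nEnd cannot be compared either.

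Gained and lost regions lay at similar places relative to genes. Regions within 1 kb of a transcription start site made up 7.31% of gained (5.83 to 9.03), 5.80% of lost (1.60 to 14.2) and 9.23% of all regions, and the gained minus lost difference was 1.51 percentage points (-6.79 to 5.42). The median distance to the nearest start site was 12581 bp for gained, 13468 bp for lost and 12529 bp for all regions. Gained regions were intergenic in 49.6% and intronic in 42.0%, and lost regions in 55.1% and 37.7%. The promoter share of whole lists was 8.97 ± 0.916% in DP and 8.18 ± 1.37% in SOX2+ libraries (exact permutation p = 0.6). With 1378 peaks in all 6 lists the difference was 1.35 percentage points and the groups did not overlap (exact permutation p = 0.1), and with all deposited peaks it turned to -0.569.

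Each region was next assigned to the protein-coding gene with the nearest start site. Gained regions had 918 nearest genes (4.21% of 21827 genes) and lost regions 69 (0.316%), with 9 genes in both. Of the 918 genes, 787 had 1 gained region, 109 had 2 and 22 had 3 or more, and 333 also had a region bound in both populations. Assignment by distance does not show which gene a region acts on.

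The strongest gained region lay upstream of both Gm6993 and, beyond it, Lamb1, which encodes the beta-1 chain of laminin, a main protein of the PrE basement membrane. At chr12:31229207-31229925 the SOX2 maximum was 41 in DP A (percentile 99.1), 81 in A1 (99.7) and 22 in B (88.7), and no SOX2+ list held a peak. GATA6 peaks lay there in all 3 DP libraries and both nEnd libraries. It was 11189 bp upstream of Gm6993, a predicted gene, and 35653 bp upstream of Lamb1. Gm6993 had 5 gained regions, the most of any gene together with Pramel6, and these 5 lay from 32920 to 46703 bp upstream of Lamb1, all with H3K27ac in nEnd.

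The other gained regions of highest rank lay in all 3 DP libraries. Near Usp48, a deubiquitinase gene, the SOX2 maxima were 44, 59 and 12 in DP A, A1 and B, and 8 and 7 in SOX2+ A and A1 with no peak in SOX2+ B. Upstream of Aco1, which encodes cytosolic aconitase, they were 30, 67 and 11 with no SOX2+ peak. In an intron of Tbx20, a T-box gene of heart development, they were 27, 39 and 10, again with no SOX2+ peak. These 3 regions held GATA6 in all 3 DP libraries. Near B930094E09Rik, in an intron of Slc25a46, the maxima were 40, 71 and 29 in DP cells and 14, 14 and 15 in SOX2+ cells, and SOX2 was bound there in all 4 naive libraries. In an intron of Apopt1 they were 31, 45 and 11 against 7, 11 and 9. The others of the 12 highest were nearest to Ifnk, BC048507, Tmem231, Hist1h2bm, 1810013L24Rik and Tbx3. All 12 had a GATA6 peak in at least 2 DP libraries.

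Genes of the PrE list, 40 genes of that lineage's factors, receptors and basement membrane, had 22 gained regions at 15 genes and no lost region. The count rests on the nearest protein-coding start site and fell to 7 genes when start sites of any gene were used. Of the 15 genes, 9 had a gained region without a SOX2+ peak (1.7% of all genes). GATA6 of DP cells lay at 16 of the 22 regions, GATA6 of nEnd at 19, H3K27ac of nEnd at 18 and SOX2 of naive media at 10, beside 57.5%, 56.98%, 43.4% and 55.6% of all gained regions. No test was made of these counts. By the looser rule 7 regions at 5 of these genes (Dab2, Lamc1, Nid2, Dkk1 and Fgfr2) were bound in SOX2+ cells alone, and none of the 7 held GATA6 of DP cells. For all genes the background was 4.21% with a gained and 4.47% with such a SOX2+-only region. In the count by distance that follows, a single region can count for several neighbouring genes. A count by distance, chosen after seeing the data, gave 16 of 40 PrE genes with a gained region within 100 kb of a start site (10.5% of all genes), 10 of 40 with one that had no SOX2+ peak (3.94%), 6 of 40 with a SOX2+-only region (9.88%), 17 of 40 with a region of both populations (28.3%) and 0 of 40 with a lost region (0.559%).

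Among the PrE transcription factors and receptors, Gata6 itself had 2 gained regions. Gata4 and Sox17 were not among the 15 genes with one. At chr18:11004082-11004670, in an intron of the noncoding gene 1010001N08Rik and 48177 bp upstream of Gata6, the SOX2 maximum was 11 in DP A and 19 in DP A1 with no peak in DP B or in SOX2+ cells, and GATA6 bound in all 3 DP libraries. At the second, 74734 bp upstream, the values were 9 and 17 in DP cells and 11, 10 and 9 in SOX2+ cells, with no GATA6 peak. So the first region was occupied in DP cells alone, and the second in both by the full lists. Pdgfra, the PDGF receptor that marks PrE, had 3 gained regions within the noncoding gene Gm19583, 33803, 14254 and 5930 bp upstream, and none had a SOX2+ peak. At the nearest, chr5:75146013-75146879, the maximum was 16 in DP A and 33 in DP A1. Fgfr2, an FGF receptor, had 1 gained region 117051 bp downstream with maxima of 12 and 11 and no SOX2+ peak, and 1 SOX2+-only region in an intron 1352 bp from its start site.

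Of the endocytic genes, Cubn (cubilin) had 2 gained regions, at chr2:13489400-13489929 in its intron 2155 bp into the gene and 4416 bp upstream, with maxima of 15 and 21, and of 11 and 24, in DP A and A1 and no SOX2+ peak. Lrp2 (megalin, the partner of cubilin) had 1, with maxima of 9 and 28 in DP A and A1 and 8 and 6 in SOX2+ A and A1. Dab2, their cytoplasmic adaptor, had 2, and the nearer, 55388 bp upstream, had maxima of 7 and 19 in DP A and A1 and 4 in both SOX2+ A1 and B. The other, 254800 bp upstream, had maxima of 6 and 18 in DP A and A1 and of 12 and 9 in SOX2+ A and A1, with a median percentile of 43.95 in DP and 48.47 in SOX2+ cells. None of these 5 regions had a peak in DP B. All 5 held GATA6 in at least 2 DP libraries.

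Of the basement membrane and secreted genes, Col4a2 (a collagen IV chain) was the only member whose gained region without a SOX2+ peak was in all 3 DP libraries. At chr8:11266095-11266567, in an intron of the adjacent Col4a1, the maxima were 18, 29 and 10. Lamc1 (laminin gamma-1) had 2 such regions 23729 and 36479 bp upstream, with maxima of 8 and 27, and of 7 and 7, in DP A and A1. Sparc, a matrix glycoprotein, had 2, of which the one 5798 bp upstream had maxima of 7 and 12 and no SOX2+ peak. Lama1, Nid1 and the other Sparc region had peaks in all 3 SOX2+ libraries by the full lists and no GATA6 in 2 DP libraries. Dkk1, a secreted Wnt inhibitor, had a gained region 32976 bp downstream and a SOX2+-only region 4324 bp upstream. Plod2, a collagen-modifying enzyme, had an intronic gained region, and Hs3st1 and Tfec had 1 each that SOX2+ cells also bound. The median percentile was lower in DP than in SOX2+ cells at Hs3st1 (36.2 and 62.6), Tfec (3.48 and 24.4) and Lama1 (36.8 and 49.1). It was higher in DP cells at Nid1 (36.8 and 28.1) and at the Sparc region 7446 bp upstream (62.9 and 17.6).

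Pluripotency genes had gained regions as well. Of 30 listed genes, 11 had 15 gained regions, 8 of them without a SOX2+ peak, and 19 genes had a region bound in both populations. Over all genes 4.21% had a gained region, 1.7% one without a SOX2+ peak, 4.47% a SOX2+-only region and 11.8% a region of both populations. A SOX2+-only region was nearest to 9 of the 30 genes, and with start sites of any gene the count of genes with a gained region fell to 4. GATA6 of DP cells lay at 11 of the 15 regions, GATA6 of nEnd at 10 and AGATAA at 12, beside 57.5%, 56.98% and 72.2% of all gained regions. Within 100 kb the count was 10 of 30 genes with a gained region, 6 of 30 with one that had no SOX2+ peak, 10 of 30 with a SOX2+-only region, 23 of 30 with a region of both populations and 1 of 30 with a lost region, beside 10.5%, 3.94%, 9.88%, 28.3% and 0.559% of all genes. In an intron of Esrrb, an orphan nuclear receptor of the naive network, at chr12:86480583-86481064, the maxima were 10 and 20 in DP A and A1 with no SOX2+ peak, and GATA6 was bound in all 3 DP and both nEnd libraries. Tbx3, a T-box factor of naive cells that is also active in PrE, had 3 gained regions in the antisense gene Tbx3os1. At chr5:119579754-119580694 the maxima were 17, 27 and 8 with no SOX2+ peak, and at chr5:119588880-119589250 they were 29, 35 and 10 in DP cells and 15 and 10 in SOX2+ A and A1. All 3 held GATA6 in every DP library.

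Dppa4 and Dppa2, neighbouring genes of early embryonic factors, each had a gained region without a SOX2+ peak. The former was at chr16:48278914-48279435, 4598 bp upstream of Dppa4, with maxima of 11 and 30, and the latter in an intron of Dppa2, with 13 and 14. Mybl2 (a MYB factor), Klf5 (a naive Kruppel-like factor) and Jarid2 (a Polycomb partner) also had 1 without a SOX2+ peak. That of Nr5a2, a nuclear receptor, had maxima of 12 and 15 in DP A and A1, SOX2 in 3 of 4 naive libraries and no GATA6. That of Klf4 had a lower median percentile in DP (27.8) than in SOX2+ cells (55.0) and counts as gained only because the SOX2+ lists were cut. Its maxima were 8 and 9 in DP A and A1 and 13, 14 and 8 in SOX2+ A, A1 and B. Dppa5a had a gained region 1995 bp from its start site and a SOX2+-only region at 3167 bp.

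**Figure D4:**
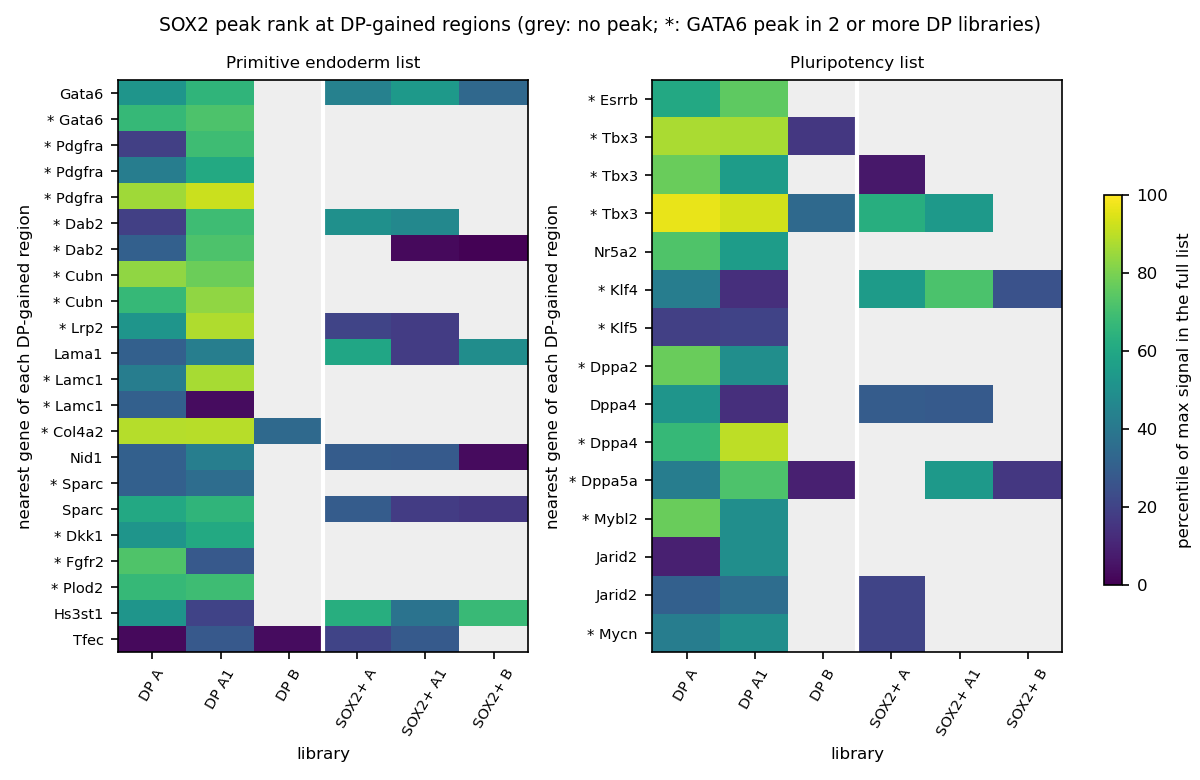
Percentile of SOX2 maximum signal in each library's full list (colour, with grey for no peak) at the 22 gained regions nearest to PrE genes (left) and the 15 nearest to pluripotency genes (right), with the 6 libraries on the x axis. Stars mark GATA6 in at least 2 DP libraries (16 and 11 regions), and most starred rows are grey in the SOX2+ columns.

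The other lists are given by their gained and SOX2+-only counts, beside 4.21% and 4.47% of all genes. Of 24 FGF and ERK genes, 3 had a gained region (Fgfr2, Spry2 and Dusp6) and 6 a SOX2+-only one. Of 12 LIF and STAT3 genes, 3 had a gained region (Lifr, Gab1 and Klf4) and 4 a SOX2+-only one, among them Pim1, a kinase gene induced by STAT3, whose region was lost. By median percentile the gained regions of Gab1 (19.2 in DP, 59.1 in SOX2+ cells) and Klf4 (27.8 and 55.0) ranked lower in DP cells. So did the Dusp6 region 197744 bp away (19.6 and 62.6), but not its other one (77.3 and 38.0). That of Lifr stood at only 4.13 in DP cells, with no SOX2+ peak. None of 19 Wnt pathway genes was nearest to a gained region and 3 were nearest to a SOX2+-only one, among them Tcf7l1, the repressor of Wnt targets, whose region was lost. The gained and SOX2+-only counts were 1 (Cdh2) and 3 of 17 formative genes, 1 (Smad2) and 2 of 24 Nodal and BMP genes, and 2 (Sox4 and Meis1) and 4 of 20 neural factor genes. In the trophoblast list they were 1 (Krt8) and 0 of 18.

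The membership of these lists changed when regions were counted within 100 kb of a start site. A single region could count there for several neighbouring genes, so these are not counts of separate regions. Dusp6, Klf4 and Sox4 were then without a gained region, and gained regions then lay at 4 of 18 trophoblast genes (Eomes, Krt8, Krt18 and Sox21), 3 of them without a SOX2+ peak (3.94% of all genes), and SOX2+-only regions at 0 of 18. Of the Wnt genes, Tcf7 and Tcf7l1 had a gained region, and that of Tcf7l1 had no SOX2+ peak, so this gene had both a gained and a lost region in reach. The gained and SOX2+-only counts were 5 and 7 of 24 FGF and ERK genes, 2 and 4 of 12 LIF and STAT3 genes, 2 and 3 of 19 Wnt genes, 3 and 4 of 17 formative genes, 2 and 3 of 24 Nodal and BMP genes, and 1 and 3 of 20 neural factor genes. Beside these, the shares of all genes were 10.5% and 9.88%.

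Some genes were nearest to several gained regions, which did not always lie close together. Pramel6, of the PRAME-like family of early embryos, had 5 within 7465 bp of its start site, of which 3 had no SOX2+ peak. Zcchc13 had 4 between 21734 and 52452 bp away, and 3 of them lay in the noncoding gene Ftx, a positive regulator of Xist. Marcks had 4 between 79840 and 168253 bp away and Atxn7l3b 4 between 27907 and 267259 bp. The 4 regions of Cdh6 lay between 42593 and 1527356 bp away and those of Diaph2 between 794229 and 1069046 bp. Zcchc13, Marcks, Atxn7l3b, Cdh6 and Diaph2 each had 3 gained regions that lacked a SOX2+ peak. Cd55b had 4 between 70963 and 177179 bp away, all with a SOX2+ peak in the full lists, and GATA6 of 2 DP libraries at 1 of them. Spin1 had 3 gained regions and 1 lost region.

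By the rule, lost regions were within the equal-number lists of every SOX2+ library and had no DP peak, so their SOX2 values are given as a description. In an intron of Ncoa1, a nuclear receptor coactivator gene, at chr12:4359542-4359957, the maxima were 60, 50 and 33 in SOX2+ A, A1 and B (percentiles 97.1, 97.5 and 92.5). In an intron of Rab3gap1 they were 58, 50 and 27, and near Hhipl2 55, 62 and 46. Downstream of Mycn, a MYC factor gene of pluripotent cells, at chr12:12927129-12927555 they were 57, 45 and 31, and SOX2 was bound there in all 4 naive libraries. Mycn also had a gained region 45108 bp upstream, with maxima of 8 and 14 in DP A and A1, 8 in SOX2+ A and GATA6 in all 3 DP libraries. In an intron of Tcf7l1 the lost region had maxima of 43, 33 and 27. The others of the 12 highest were nearest to Dclre1a, Shank2, Ppp1r16b, Pard6g, Birc3, Rbbp7, Rnf144b and Mypn, of which that of Ppp1r16b lay at a promoter and held GATA6 in both nEnd libraries. Each of the 12 was bound by SOX2 in at least 1 naive library. Under the looser rule SOX2+-only regions included one 15422 bp upstream of Pou5f1, the gene of OCT4, and one 10024 bp upstream of Sall4. Within 100 kb of a start site, both genes also had a region of both populations, and Pou5f1 had a gained region.

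Regions present in all 6 full lists allowed SOX2 rank to be compared directly. In 1199 such regions the rank of the maximum within each library was turned into a normal score and tested with limma. The SOX2 rank was higher in DP cells at 145 regions (12.1%) and lower at 139 (11.6%) at a Benjamini-Hochberg adjusted p under 0.05. Ranks within a library balance rises against falls, so these counts do not measure a net change in SOX2 binding. GATA6 of DP cells lay at 102 of the 145 higher regions (70.3%), at none of the 139 lower regions and at 157 of the 915 others (17.2%). Of the higher regions 31 were DP-gained, so their call shares its contrast with the rule. Without them GATA6 lay at 78 of 114 (68.4%). The counts fell to 31 higher and 9 lower without sort A and to 47 and 24 without A1, and were 150 and 148 without B.

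Of the regions with the largest differences that were not gained, that of Mttp, the gene of the lipoprotein-loading transfer protein of endoderm, stood at percentiles of 90.0, 96.0 and 82.5 among the 1199 in DP A, A1 and B. In SOX2+ cells it stood at 9.13, 12.3 and 7.51 (score difference 2.63 ± 0.29, SE, limma adjusted p = 0.000292). That of Arhgap21, a RhoGAP gene, differed by 2.77 ± 0.35 (limma adjusted p = 0.00051). Both held GATA6. The gained regions of B930094E09Rik, Apopt1 (2), Ifnk, Hist1h2bm and Nox3 made up the other 6 of the 8 largest, with differences from 2.61 to 3.39. In the other direction, a region 609839 bp from Cdh2 (N-cadherin) fell by 2.10 ± 0.39 (limma adjusted p = 0.00328) and stood at percentiles of 0.209, 10.3 and 2.38 in DP and 52.1, 61.8 and 40.8 in SOX2+ libraries. The regions of 5430403G16Rik, Zranb2, Wac, Gm8797, Tmem167, Hsd17b3 and Sgcd had score differences from -1.94 to -1.80, with adjusted p (limma) from 0.00103 to 0.013, and none of the 8 held GATA6.

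**Figure D5:**
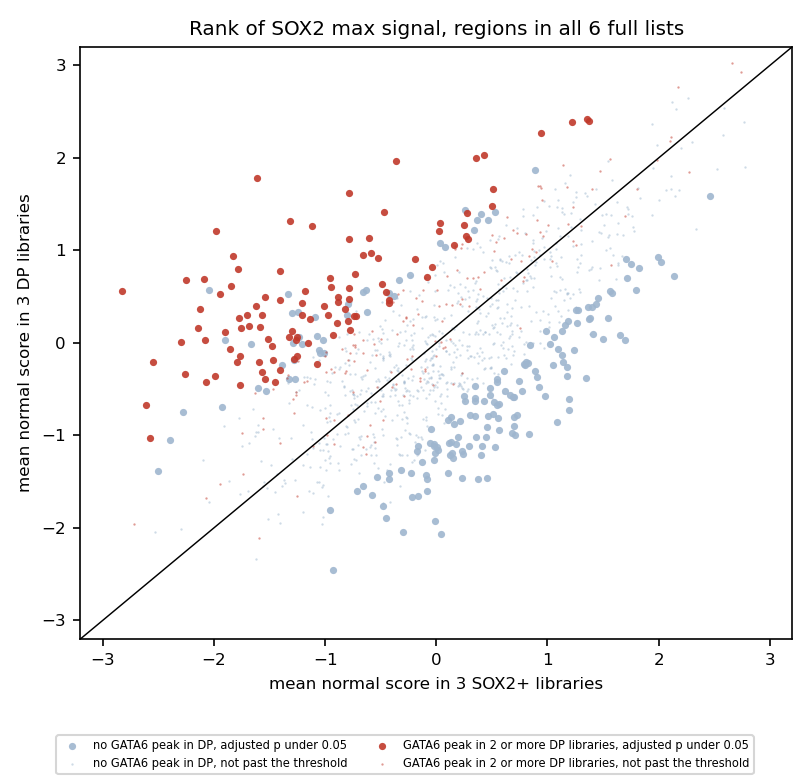
Mean normal score of SOX2 maximum signal in 3 SOX2+ libraries (x axis) and 3 DP libraries (y axis) for 1199 regions present in all 6 full lists, with large points past an adjusted p of 0.05 and red points for GATA6 in at least 2 DP libraries. Red points lie above or on the line of equal scores where they are large (102 higher and 0 lower).

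Within each library, SOX2 regions with GATA6 of DP cells had a mean percentile 20.6, 19.7 and 1.70 points above those without in DP A, A1 and B. In SOX2+ A, A1 and B the differences were -15.1, -14.5 and -17.8 points, so the groups did not overlap (means 14.02 ± 10.7 and -15.8 ± 1.76, SD, n = 3 each, exact permutation p = 0.1). The DP library of B had a value near 0, unlike the other 2 DP libraries. In the 1151 regions that were not DP-gained, an alternative chosen after seeing the data, these differences came to 21.2, 20.6 and 2.84 in DP and -11.8, -11.2 and -14.9 in SOX2+ libraries (exact permutation p = 0.1). GATA6 of nEnd gave 14.3, 13.7 and 0.968 points in DP and -10.6, -10.6 and -12.1 in SOX2+ libraries.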

How the data were processed

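SOX2 CUT&RUN was compared between KOSR DP and SOX2+ cells (n = 3 sorts each). Per the labels, the authors used cutadapt 1.18, Bowtie2 2.3.4.1, SAMtools 1.9, Picard 2.9.1, bedtools 2.27.1, deepTools 3.2.0 and SEACR, with mm10 (GRCm38) coordinates and peaks called per library against IgG. Of the deposited columns, total and maximum signal are whole-number coverage signal on each library's own scale, so depth is unknown. Classes and tests used the rank of the signal within a library. Raw maxima are printed as a description and are not on a common scale between libraries. The transcription factor lists are named stringent and the histone lists relaxed, whereas the methods give the opposite. The 2 histone libraries whose title and source name different populations were left out, and the 18 IgG samples were not analysed here. GATA6 of DP sort A carries an unexplained sub02 in its label. For 1 NACL SOX2 sample the group comes from the title.

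Within each sort the longer list was cut by maximum signal to the shorter one. Peaks were merged at 1 bp overlap, and other readouts were regions of at least 2 libraries of a condition, except naive SOX2 (any of 4) and the single DP histone libraries. Start sites came from GENCODE M21 basic, sequence from RefSeq GRCm38.p6. Motif strings were searched on both strands in 500 bp, and the SOX and OCT strings can overlap the SOX-OCT composites. Printed windows leave out 1 chromosome. Libraries were compared with exact permutation tests, sorts with exact sign flips, and ranks with limma 3.58.1 (R 4.3.3), tested on simulated data, with Benjamini-Hochberg adjustment. Deviations from group means correlated between the populations of a sort (r = 0.215, 0.293 and 0.254 for A, A1 and B), so the sorts pair the samples. Named regions were the 12 of highest rank in each class, genes with at least 3 gained regions, listed genes and the 8 largest rank differences in each direction. Members and gene lists were chosen with earlier results of these data known.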

Additional observations from a re-analysis of the deposited data

How the results depend on the processing

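With all deposited peaks there were 409 gained and 4871 lost regions, with 1378 peaks in all 6 lists 371 and 166, and with all 3 libraries required 83 gained. The looser rule of at least 2 libraries gave 1097 lost regions. Leaving out 1 sort at a time gave 114 to 1069 gained and 106 to 1118 lost regions, as 2 sorts make the lost rule looser. The cause of the other changes was not tested.

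The gained minus lost difference kept its direction for GATA6 of DP cells, GATA6 of nEnd, naive SOX2, H3K27ac of nEnd and AGATAA under every alternative run. For GATA6 of DP cells it was 79.4 percentage points with all peaks, 65.1 with all 3 libraries, 72.7 with GATA6 of any DP library, 33.4 with equal GATA6 peak numbers and 53.8 to 61.4 without 1 sort. For GATA6 of nEnd it was 68.0 with all peaks, 64.6 with all 3 libraries and 53.3 to 57.8 without 1 sort. For naive SOX2 it was -71.2 with all peaks, -14.6 with 1378 peaks in each list, -24.1 with all 3 libraries and -42.4 to -18.4 without 1 sort. For AGATAA it was 43.9 in 1000 bp. H3K27ac of nEnd ranged from 20.5 to 30.2 and AGATAA from 53.1 to 54.0 without 1 sort, and promoters from 0.409 to 2.85. The promoter difference turned negative with all peaks (-2.01), with all 3 libraries (-0.978) and within 5 kb of a start site (-3.70).

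By whole list, all peaks turned the DP minus SOX2+ difference for promoters (-0.569), naive SOX2 (2.76), the SOX string (3.14), CTTTGT (0.775), the SOX-OCT composite (0.123) and CTCF (2.267). The OCT string turned with 1378 peaks (0.847), ranking by total signal (0.0943), a 1000 bp window (0.163) and without sort A (range -0.273 to 0.171), the composite without sort B (range -0.109 to 0.00940), and the compressed composite fell to 0 in 200 bp. The differences for GATA6 of nEnd (13.8 to 17.2), H3K27ac of nEnd (6.58 to 8.23) and AGATAA (14.7 to 19.2) kept their sign without any 1 sort.

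Rank differences at equal peak numbers, where 827 regions could be tested, numbered 77 higher and 74 lower, and 31 to 150 higher and 9 to 148 lower without 1 sort. The sort as a replicate block gave 176 higher and 166 lower. For the library shares the block leaves each difference unchanged by construction, so it was no check of them. Its exact sign-flip p was 0.25 for GATA6 of nEnd, below which 3 sorts cannot go. Nearest start sites of any gene left 7 PrE and 4 pluripotency genes with a gained region. The length of each peak list limits what a library can show.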
